A study of Sus scrofa with 4 samples.

Results

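Collagens are built from alpha chains, each encoded by a gene of its own, and the chain genes are followed here through the developing pig testis. The 39 members are the features whose symbol in the deposited gene list reads COL, a number, A and a number, out of 31908 features in all. By role they are 10 fibrillar chains, 5 chains of the basement membrane network, 2 basement membrane zone chains, 5 beaded filament chains, 8 fibril-associated chains, 3 short network chains, 4 transmembrane chains and 2 others. The study took testis cell suspensions from pigs (Sus scrofa) aged 7, 30, 60 and 90 days and sequenced single-cell 3′ RNA libraries, 1 per age, to follow the niche cells of the testis through puberty. The labels give no breed, genotype or treatment and do not say how many animals a library holds. Age and library therefore cannot be told apart, no difference below was tested, and every interval is a 95% interval for counting error only.

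A collagen molecule is a triple helix of alpha chains that assemble in the endoplasmic reticulum before secretion. Fibrillar collagens such as types I, III and V form the fibres that carry tension, and fibril-associated collagens decorate them. Type IV collagen forms the sheet-like network of basement membranes, types XV and XVIII lie where basement membrane meets stroma, and type VI forms beaded filaments close to cells. In the testis a basement membrane separates the Sertoli cells, which nurse the germ cells, from the peritubular myoid cells that wrap the tubule. Outside lie fibroblast-like stromal cells, androgen-making Leydig cells and vessels.

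The labels state a capture of 86453 cells, the files hold 69602 barcodes, and 47969 cells were used after filters and doublet removal, of which 42836 fell in a named class. Median depth per cell used was 4972, 2840.0, 2482.5 and 2541 UMIs (unique molecular identifiers, each a captured transcript) from the youngest library to the oldest. Any 2 libraries shared 78 to 115 barcodes. The names were rebuilt here by clustering without the collagen genes and from marker lists, hence "-like": Sertoli-like, peritubular myoid-like (peritubular-like from here on), interstitial stromal-like (stromal-like), pericyte or vascular smooth muscle-like (pericyte-like), blood and lymphatic endothelial-like, Leydig-like, macrophage or monocyte-like (macrophage-like), T or NK-like and germ-like. At 60 days 3368 cells stayed unnamed and 1018 carried too few markers, more than in any other library. Classes with under 100 cells in a library are not used, such as peritubular-like cells at 7 days (12 cells) and pericyte-like cells at 60 days (45 cells).

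Defining markers set limits to these names. ACTA2, smooth muscle actin, had 2266, 2196 and 9516 CPM (UMIs per 1000000 UMIs of the class) in peritubular-like cells of the 30-, 60- and 90-day libraries, and MYH11, smooth muscle myosin, had 507, 388 and 5044 CPM. The younger peritubular-like cells thus carried far less of the contractile genes than those at 90 days, and they carried the fibroblast gene LUM at 2310.2, 2959 and 427 CPM, against 1184, 1788 and 1253 CPM in stromal-like cells. Clusters 24 and 25, which hold these younger cells, scored higher for the stromal than for the peritubular marker list (3.32 against 2.92 and 2.75 against 2.53, as mean log2 level over the median cluster). They are called peritubular-like by a rule, set after seeing the data, that takes this name wherever the peritubular score is at most 0.50 below the stromal one. Cluster 31, which holds the 90-day cells, scored 2.7 for the stromal and 4.88 for the peritubular list. Stromal-like cells in turn had more ACTA2 at 7 days (639 CPM) than later (254 to 276 CPM). Different clusters hold most of a class in different libraries: Sertoli-like cells are mainly clusters 1, 2 and 3 at 7 days, 1 and 4 at 30 days, 5 at 60 days and 23 at 90 days. Peritubular-like cells are mainly clusters 24 at 30 days, 24 and 25 at 60 days and 31 at 90 days, and stromal-like cells are mainly clusters 8, 9, 26 and 30 in order of age. Leydig-like cells are mainly cluster 12 at 7, 30 and 90 days. At 60 days cluster 27 held 140 of them and cluster 12 held 32, before the marker requirement. Their median number of Leydig marker UMIs per cell was 645, 333, 14.5 and 110 at the 4 ages. Germ-like cells are mainly clusters 15 and 17 at 7 days, 15 at 30 days, 15 and 22 at 60 days and 22 and 32 at 90 days. Clusters 15, 17 and 22 scored highest for the spermatogonia list and cluster 32 for the spermatocyte list. Germ-like levels by age thus do not follow 1 kind of germ cell. Pericyte-like cells are the sum of clusters 16 and 18. Cluster 18 had 3 peritubular markers (MYH11, ACTA2 and TAGLN) and 1 of its own, RGS5, among its 10 leading genes. It scored 4.28 for the peritubular list, above its 3.23 for the pericyte list. A rule gave it the pericyte name because the pericyte score was at least 0.75.

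Collagen transcripts were concentrated in the fibroblast-like classes. The 39 genes made up 2.04%, 2.48%, 2.82% and 2.67% of all UMIs of stromal-like cells at 7, 30, 60 and 90 days. In peritubular-like cells the share was 1.49%, 1.87% and 1.39% at 30, 60 and 90 days. Pericyte-like cells came next, with 0.681%, 0.554% and 0.449% at 7, 30 and 90 days, followed by blood endothelial-like cells with 0.307%, 0.257%, 0.354% and 0.259% at the 4 ages. Sertoli-like cells had 0.0775%, 0.0578%, 0.0814% and 0.03003%. Leydig-like and lymphatic endothelial-like cells lay between blood endothelial-like and Sertoli-like cells in every library where they were used. T or NK-like cells, which should hardly make collagen, had 0.0249%, 0.0235%, 0.134% and 0.0451%, highest in the 60-day library, and Sertoli-like cells lay below them at 60 and 90 days. Macrophage-like cells had 0.0317%, 0.03601% and 0.0634% at 7, 30 and 60 days, and germ-like cells had 0.0516%, 0.0544%, 0.079% and 0.0353%. T or NK-like cells are used below as a guide to background. They were shallow, with a median of 1253 to 2836 UMIs per cell, against 3672 to 5770.5 in Sertoli-like cells, and the source of their collagen UMIs was not tested.

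Of all collagen UMIs in the cells used, stromal-like cells held 80.02%, 52.6%, 44.8% and 70.6% at the 4 ages, and peritubular-like cells held 34.2%, 24.9% and 11.7% at 30, 60 and 90 days. For the basement membrane network chains the order was different, with 57.3%, 39.1% and 36.6% in peritubular-like cells. These shares follow the number of cells of a class as well as the level per cell. Their total also counts cells in no class, which at 60 days were 3368 unnamed cells and 1018 with too few markers. Collagen UMIs of those cells are in no class share, so the 60-day shares are not directly comparable with those of the other ages.

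**Figure D1:**
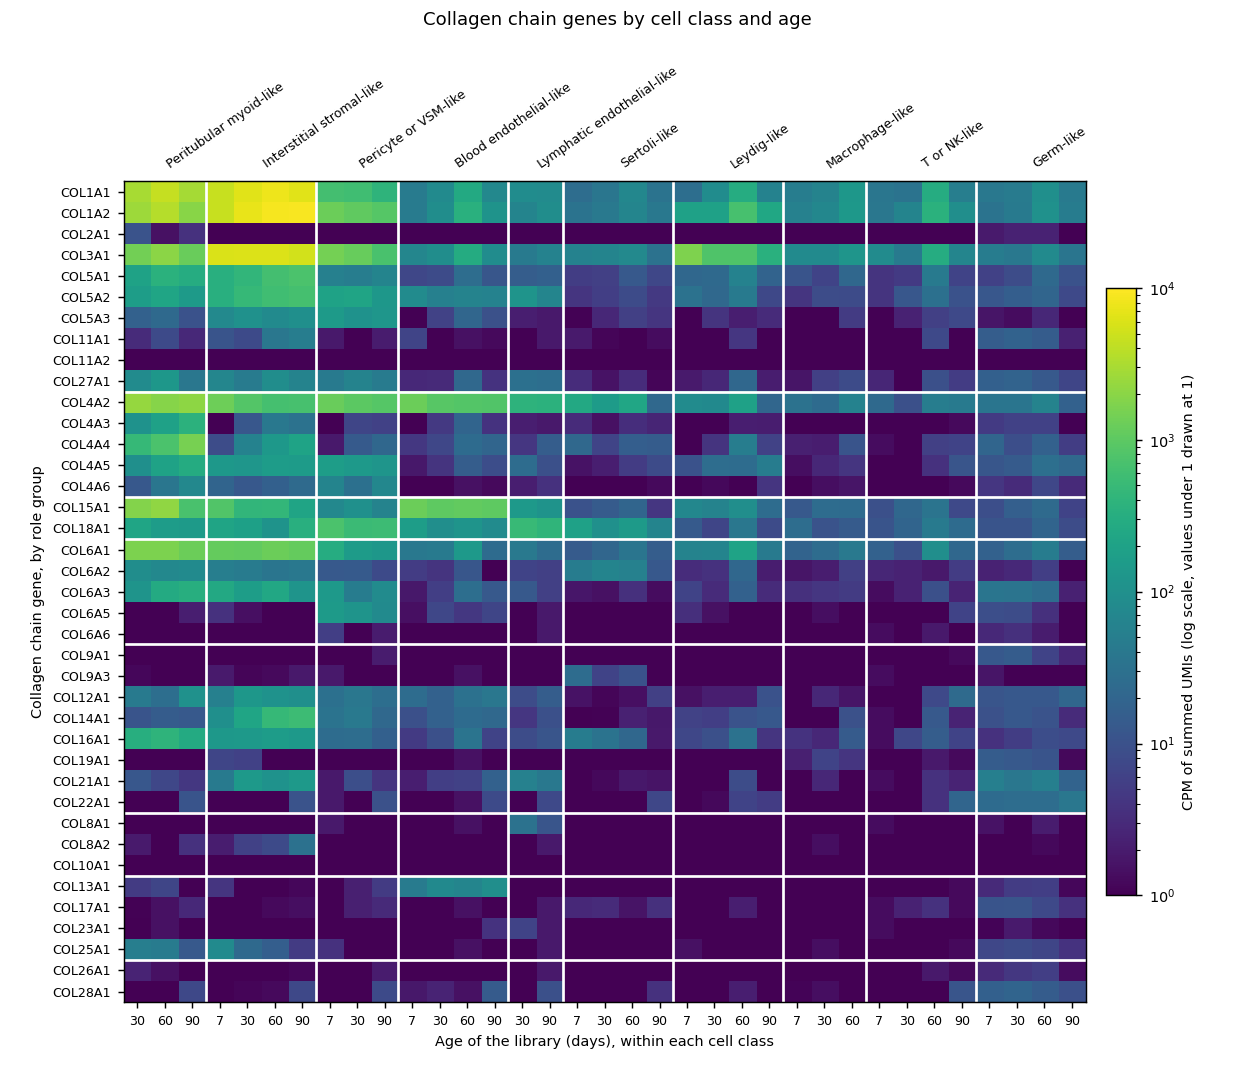
Rows are the 39 collagen chain genes in role groups, columns are cell classes in each library with ages in days, and colour gives the CPM of the summed UMIs on a log scale, values under 1 drawn at 1. Most fibrillar genes are brightest in stromal-like cells, where COL1A2 reaches 9149 CPM. Exceptions are COL5A3, brightest in pericyte-like cells, and COL2A1 and COL27A1, brightest in peritubular-like cells. COL4 genes are brightest in peritubular-like cells, where COL4A4 reaches 1516 CPM. COL4A6 is nearly as bright in pericyte-like cells.

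Of the 39 genes, 24 reached 50 CPM in at least 1 somatic class. The highest level lay in peritubular-like cells for 11 of them, in stromal-like cells for 9, in pericyte-like cells for 3 and in blood endothelial-like cells for 1. The other 15 peaked between 0.149 and 48.8 CPM. A UMI marks the 3′ end of a transcript whatever its length, so CPM is not scaled by length, but 3′ ends can be annotated and captured unequally, which limits orders between genes.

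The fibrillar genes were mainly stromal. COL1A2, the second chain of type I collagen, had 4619, 7327, 8816 and 9149 CPM in stromal-like cells at the 4 ages, against 39.2, 64.9, 354 and 95.5 CPM in T or NK-like cells. COL1A1, the major type I chain, had 4573, 6605, 7782 and 6710.4 CPM in stromal-like cells. COL3A1, the chain of type III collagen in pliable tissue, had 5958, 6082, 6169 and 5239.6 CPM. COL1A2 was higher in each later library, while COL3A1 stayed in a narrow range. At 90 over 7 days COL1A2 was 1.98-fold higher (1.96 to 2.01) and COL1A1 1.47-fold higher (1.45 to 1.49), under the 1.5-fold mark used here, while COL3A1 was 1.14-fold lower (1.12 to 1.15). With TMM scaling, which centres the bulk of features, the log2 ratio of COL1A2 was 0.46, which no longer passed the mark, and that of COL3A1 was -0.71, past it as lower.

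Type V collagen, which regulates fibril width, resembled COL1A2. COL5A1 had 335, 436, 641 and 735 CPM in stromal-like cells and was 2.19-fold higher (2.09 to 2.299) at 90 over 7 days. COL5A2, its partner chain, had 331, 483, 601 and 659 CPM and was 1.99-fold higher (1.89 to 2.09). Both were higher in each later library. COL11A1, a minor fibril chain best known from cartilage, had 10.9, 7.78, 38.1 and 48.8 CPM, low in the first libraries and higher at 60 and 90 days.

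Peritubular-like cells held the same genes at lower levels. COL1A1 had 3008, 4454 and 2937 CPM there at 30, 60 and 90 days, COL1A2 had 2622, 3613 and 1914 CPM and COL3A1 had 1383, 2018 and 1210.5 CPM. Each was highest in the 60-day library, where COL1A1 also stood at 299 CPM in T or NK-like cells, against 33.6 to 50.95 CPM in the others; the part of free RNA was not tested. COL27A1, a fibrillar chain of cartilage, peaked in peritubular-like cells with 85.4, 129.7 and 38.9 CPM, lowest at 90 days. COL5A3, a minor type V chain, peaked in pericyte-like cells with 153, 109 and 125 CPM at 7, 30 and 90 days. By cluster it had 253, 173 and 219 CPM in cluster 16, against 21.5, 34.5 and 29.9 CPM in cluster 18. COL3A1 was also abundant in Leydig-like cells at 7 days, with 1682, 787, 779 and 342 CPM at the 4 ages, although COL1A1 had only 27.8, 87.1, 305 and 59.04 CPM in them.

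**Figure D2:**
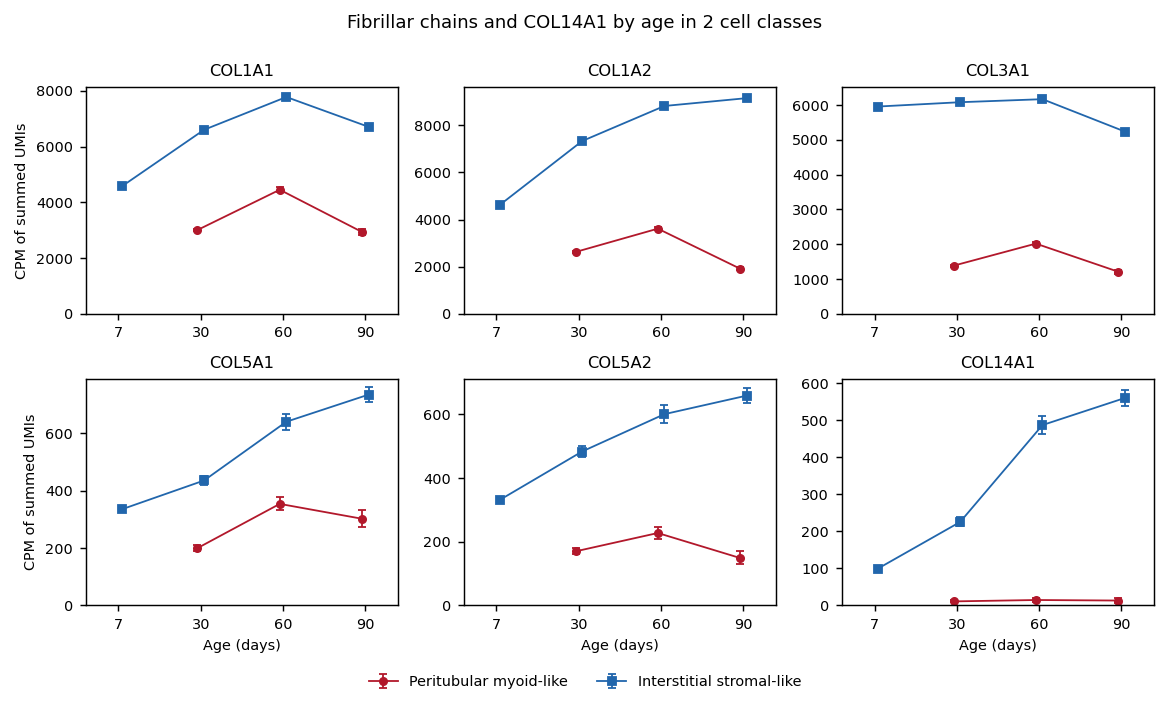
Panels give CPM of summed UMIs (linear axis from 0) by age in days for 5 fibrillar genes and COL14A1 in peritubular-like and stromal-like cells, with 95% counting intervals. Each gene lies higher in stromal-like cells wherever both classes are shown, and COL14A1 reaches 13.2 CPM in peritubular-like cells at 90 days, against 559.9 CPM in stromal-like cells.

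The proportions of the chains differed too, in ratios that need no scaling between libraries. COL1A1 UMIs per COL1A2 UMI came to 1.15, 1.23 and 1.53 in peritubular-like cells at 30, 60 and 90 days, against 0.901, 0.883 and 0.733 in stromal-like cells. Pericyte-like cells had 0.507, 0.553 and 0.439 at 7, 30 and 90 days. COL1A1 UMIs per COL3A1 UMI came to 2.17, 2.21 and 2.43 in peritubular-like cells, against 1.09, 1.26 and 1.28 in stromal-like cells. COL1A2 UMIs per COL3A1 UMI came to 1.896, 1.79 and 1.58 in peritubular-like cells, against 1.205, 1.43 and 1.75 in stromal-like cells, so by this chain the order of the classes was the other way at 90 days.

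All 5 chains of the basement membrane network had their highest class level in peritubular-like cells, for COL4A6 by a narrow margin. At 90 days COL4A6 had 73.4 CPM in them, against 71.4 CPM in pericyte-like cells, where cluster 18 alone had 113 CPM. At 30 days COL4A5 and COL4A6 had 99.3 and 12.6 CPM in peritubular-like cells, against 145 and 29.5 CPM in pericyte-like cells. COL4A2, which joins COL4A1 in nearly all basement membranes, had 2334, 1873 and 2079 CPM in peritubular-like cells at 30, 60 and 90 days. It had 1288, 861, 659.8 and 690.4 CPM in stromal-like cells and 1242, 922, 862 and 827 CPM in blood endothelial-like cells at the 4 ages. Stromal-like and endothelial-like cells were highest at 7 days, and peritubular-like cells showed no steady order. COL4A1 carries only an identifier in the deposited gene list and is no member; named from the gene table, it had 1284, 1909 and 1578 CPM in peritubular-like cells. The models of COL4A1 and COL4A2 overlap by 525 bases, where the strand setting of the counting, not given in the sources used here, decides the gene.

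The chains of the specialised type IV networks were higher in each later library. COL4A4, part of the alpha3-alpha4-alpha5 network known from the kidney glomerulus, had 478, 739 and 1516 CPM in peritubular-like cells at 30, 60 and 90 days. COL4A3, its partner, had 109, 192 and 369 CPM. COL4A5, shared by both specialised networks, had 99.3, 203 and 292 CPM. COL4A6, the partner of COL4A5 in smooth muscle basement membranes, had 12.6, 37.6 and 73.4 CPM. At 90 over 30 days COL4A6 was 5.84-fold higher (4.33 to 7.904), COL4A3 3.38-fold higher (3.01 to 3.79), COL4A4 3.17-fold higher (2.998 to 3.35) and COL4A5 2.94-fold higher (2.59 to 3.34), whereas COL4A2 was 1.12-fold lower (1.08 to 1.17). With TMM the log2 ratios of the first 4 were 2.05, 1.26, 1.17 and 1.06, and that of COL4A2 was -0.66. The contractile markers ACTA2 and MYH11 were higher over the same interval; their part in the result was not tested.

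T or NK-like cells had at most 6.37 CPM of COL4A4 and 1.27 CPM of COL4A3. These genes are neighbours on chromosome 15 (RefSeq, Sscrofa11.1), COL4A4 at chr15:128472228-128612302 and COL4A3 at chr15:128611640-128763331, with models that overlap by 663 bases. COL4A5 and COL4A6 lie 207898 bases apart on chromosome X. COL4A4 UMIs per COL4A3 UMI came to 4.38, 3.84 and 4.11 in peritubular-like cells at 30, 60 and 90 days, a nearly fixed proportion. COL4A4 UMIs per COL4A2 UMI came to 0.205, 0.395 and 0.729, so the make-up of type IV transcripts differed between the libraries.

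Stromal-like cells had the same age order for COL4A4 at lower levels, with 8.41, 59, 134 and 206 CPM at the 4 ages. COL4A3 had 0.817, 12, 39.6 and 31.8 CPM there, highest at 60 days. At 90 over 7 days COL4A4 was 24.5-fold higher (19.9 to 30.3) and COL4A3 38.9-fold higher (20.5 to 82.9), while COL4A2 was 1.87-fold lower (1.79 to 1.94). Pericyte-like cells carried COL4A5 at 168, 145 and 121 CPM and COL4A6 at 63.4, 29.5 and 71.4 CPM at 7, 30 and 90 days, but COL4A4 at only 1.86, 13.6 and 21.8 CPM. In blood endothelial-like cells COL4A3, COL4A4, COL4A5 and COL4A6 stayed at or under 25.4 CPM.

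**Figure D3:**
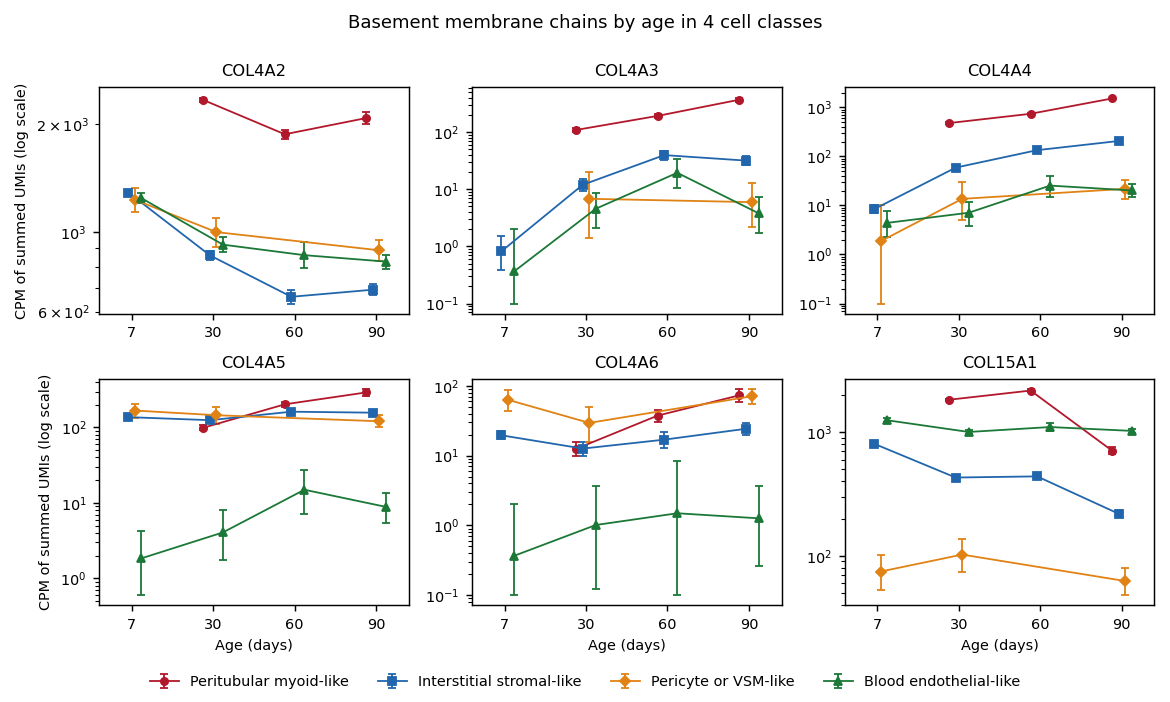
Panels give CPM of summed UMIs (log axis) by age in days for 5 type IV chains and COL15A1 in 4 cell classes, with 95% counting intervals; bars that reach under 0.1 CPM are drawn to 0.1, and levels of 0 are not drawn. COL4A3, COL4A4, COL4A5 and COL4A6 are higher in each later library in peritubular-like cells, whereas COL15A1 is lowest there at 90 days, at 710.1 CPM.

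The basement membrane zone chains divided the classes. COL15A1, which links basement membranes to fibrils around muscle and capillaries, had 1834, 2176 and 710.1 CPM in peritubular-like cells and was 2.58-fold lower (2.42 to 2.76) at 90 over 30 days. In stromal-like cells it had 807, 430.0, 439 and 219 CPM and was 3.68-fold lower (3.44 to 3.94) at 90 over 7 days. Blood endothelial-like cells had 1251, 1006, 1102 and 1026 CPM, a narrow range. Peritubular-like cells thus lay above endothelial-like cells at 30 and 60 days and below them at 90 days.

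COL18A1, the source of endostatin, was highest in pericyte-like cells, with 739.8, 534 and 550.2 CPM at 7, 30 and 90 days. Lymphatic endothelial-like cells had 503 and 412 CPM at 30 and 90 days. Blood endothelial-like cells had only 171, 93.3, 117 and 86.4 CPM at the 4 ages. Stromal-like cells had 219, 188, 113 and 333 CPM, highest at 90 days.

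Set against pericyte-like cells of the same library, blood endothelial-like cells were at least 1.5-fold lower, with an interval that excludes no change, for 15 of 22 collagen genes with at least 10 UMIs at 7 days, against 15% of all features measured. The count was 16 of 23 at 30 days (15.8%) and 15 of 26 at 90 days (16.3%). Higher genes numbered 2, 2 and 3, against 15%, 13.4% and 12% of features. COL15A1 was 16.8-fold higher (12.3 to 23.5) in endothelial-like cells at 7 days, 9.84-fold higher (7.33 to 13.5) at 30 days and 16.4-fold higher (12.8 to 21.5) at 90 days. COL18A1 was 4.34-fold lower (3.78 to 4.97), 5.72-fold lower (4.698 to 6.98) and 6.37-fold lower (5.42 to 7.51). At 90 days COL18A1 had 395 CPM in cluster 16 and 707 CPM in cluster 18, and COL15A1 had 84.9 and 39.8 CPM. COL13A1, a transmembrane collagen, was the other higher gene in all 3 libraries. With TMM, shifts of 0.14, 0.19 and 0.20, the lower members numbered 15, 16 and 15 and the higher ones 2, 2 and 4, where 12.8%, 12.4% and 11.8% of features were lower and 18.2%, 17.6% and 15.9% higher.

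Among the beaded filament chains COL6A1 had the highest level in peritubular-like and stromal-like cells, but not in Sertoli-like cells at 7, 30 and 60 days, where COL6A2 was above it. COL6A1 had 1605, 1644 and 1282 CPM in peritubular-like cells and 1149, 1086, 1255 and 1153 CPM in stromal-like cells. COL6A3, the large chain of type VI, had 119.6, 277 and 326 CPM in peritubular-like cells at 30, 60 and 90 days, where it was 2.72-fold higher (2.42 to 3.06) at 90 over 30 days. In stromal-like cells it had 263, 171, 247 and 118 CPM at the 4 ages and was 2.22-fold lower (2.02 to 2.44) at 90 over 7 days. COL6A2, which type VI needs together with COL6A1, reached only 92.8, 74.4 and 82.9 CPM in peritubular-like cells; its RefSeq model lies on an unplaced scaffold, and how fully its 3′ end was counted was not tested. COL6A5, related to COL6A3, was a pericyte gene, with 149, 116 and 81.3 CPM in pericyte-like cells and at most 7.097 CPM in the other somatic classes.

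The fibril-associated chains differed between peritubular-like and stromal-like cells. COL14A1, which binds the surface of type I fibrils, had 10.9, 14.7 and 13.2 CPM in peritubular-like cells at 30, 60 and 90 days, against 99.3, 225, 487 and 559.9 CPM in stromal-like cells at the 4 ages. It was higher in each later stromal library, 5.64-fold higher (5.26 to 6.04) at 90 over 7 days. COL21A1, a related chain, had 43.4, 146, 111 and 147 CPM in stromal-like cells and at most 12.3 CPM in peritubular-like cells. COL12A1, found in tension-bearing tissue, had 45.1, 27.8 and 105 CPM in peritubular-like cells, against 133, 108 and 99.3 CPM in stromal-like cells of the same libraries, close only at 90 days. COL16A1, by contrast, had 320.2, 402 and 281 CPM in peritubular-like cells, against 147, 161 and 143 CPM in stromal-like cells.

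COL25A1 and COL13A1 are transmembrane collagens. COL25A1, known from the innervation of muscle, had 50.7, 45.5 and 13.2 CPM in peritubular-like cells and 80.7, 23.2, 15.7 and 4.905 CPM in stromal-like cells. It was lowest at 90 days in both, 3.84-fold lower (2.39 to 6.55) over 30 days in peritubular-like cells and 16.5-fold lower (10.7 to 26.7) over 7 days in stromal-like cells. COL13A1 marked blood endothelial-like cells, with 45.6, 79.6, 65.7 and 93.1 CPM, against at most 6.77 CPM in the other somatic classes.

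Peritubular-like cells were then set against stromal-like cells within each library. At 90 days 10 of 27 measured collagen genes were higher, against 6.43% of features, and 12 were lower, against 11.1%. At 30 days 11 of 32 were higher and 12 lower (7.52% and 14.8% of features), and at 60 days 9 of 25 were higher and 11 lower (6.64% and 13.5%). At 90 days 5 of 5 network chains were higher, with a median log2 ratio of 1.59, and 8 of 8 fibrillar chains were lower, with a median of -2.13, where the median of all features was -0.08. At 30 days 3 of 5 network chains were higher and 7 of 9 fibrillar chains lower, and at 60 days 4 of 5 and 7 of 8. Over all settings tried the 90-day counts lay between 8 and 12 higher and between 10 and 12 lower.

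Some differences had the same sign in all 3 libraries. In peritubular-like cells at 30, 60 and 90 days COL4A3 was 9.11-fold higher (7.16 to 11.7), 4.86-fold higher (3.99 to 5.95) and 11.6-fold higher (9.59 to 14.1). COL4A4 was 8.11-fold higher (7.27 to 9.06), 5.52-fold higher (4.97 to 6.14) and 7.36-fold higher (6.799 to 7.97). COL15A1 was 4.27-fold higher (4.09 to 4.45), 4.95-fold higher (4.67 to 5.25) and 3.24-fold higher (2.96 to 3.55). At 30 and 60 days the peritubular-like cells compared are those of clusters 24 and 25, which carried stromal markers as well. On the other side COL14A1 was 20.6-fold lower (16.3 to 26.5), 33.2-fold lower (24.2 to 46.9) and 42.4-fold lower (26.8 to 71.7), and COL21A1 was 11.9-fold lower (9.51 to 15.1), 15.6-fold lower (9.83 to 26.2) and 33.4-fold lower (15.3 to 91.4).

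Others changed sides. COL4A5 was 1.26-fold lower (1.13 to 1.399), 1.25-fold higher (1.11 to 1.42) and 1.86-fold higher (1.64 to 2.11) at 30, 60 and 90 days. COL6A3 was 1.43-fold lower (1.302 to 1.57), 1.12-fold higher (1.01 to 1.24) and 2.75-fold higher (2.42 to 3.13). COL18A1 was 1.18-fold higher (1.09 to 1.27) at 30 days and 2.22-fold lower (1.92 to 2.59) at 90 days. COL27A1 was 1.83-fold higher (1.58 to 2.11) at 30 days and 1.58-fold lower (1.17 to 2.16) at 90 days.

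**Figure D4:**
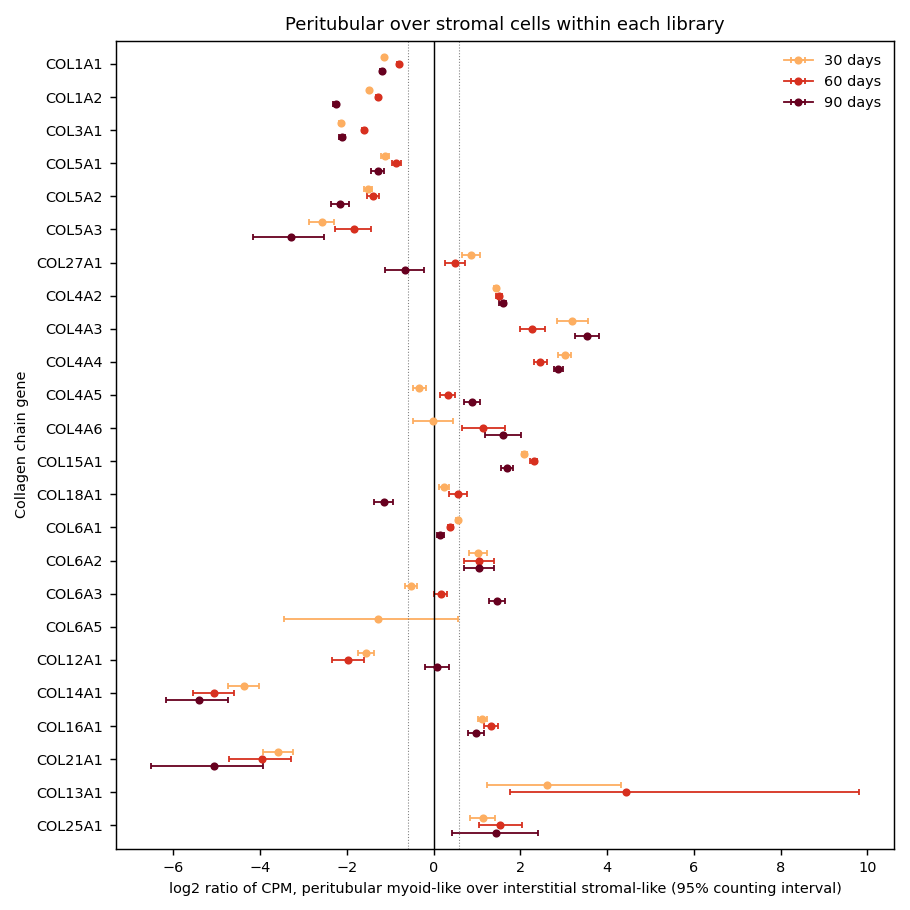
Points are log2 ratios of CPM, peritubular-like over stromal-like cells, in the 30-, 60- and 90-day libraries, with 95% counting intervals, for the collagen genes that reached 50 CPM; the dotted lines mark 1.5-fold. COL4A3, COL4A4 and COL15A1 lie right of no difference and COL14A1 and COL21A1 left of it in all 3 libraries.

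Sertoli-like cells had little collagen as a share of their UMIs. Of the basement membrane network UMIs in all cells used they still held 32.9%, 11.8%, 20.6% and 4.1% at the 4 ages. COL4A2 had 263, 156, 234 and 22.8 CPM in them at the 4 ages, against 22.98, 9.61, 49.2 and 44.6 CPM in T or NK-like cells. In CPM it thus lay above the T or NK-like level in the first 3 libraries and below it at 90 days. Per cell the 90-day order was the other way, with 304 UMIs in 2036 Sertoli-like cells and 35 UMIs in 541 T or NK-like cells. At 90 days COL4A2 had 20.7 CPM in Leydig-like and 17.6 CPM in germ-like cells, so the Sertoli-like level lay within the range of these classes. COL18A1 had 193, 103, 149 and 64.3 CPM, against 10.8, 19.2, 43.5 and 25.5 CPM in T or NK-like cells, higher at each age. COL6A2 had 47.6, 63.3, 56.8 and 12.5 CPM, against 2.703, 2.403, 1.89 and 5.095 CPM. COL6A1 UMIs per COL6A2 UMI came to 0.298, 0.327, 0.638 and 1.19 in Sertoli-like cells, against 17.3, 22.1 and 15.5 in peritubular-like cells at 30, 60 and 90 days. COL6A1 itself had 14.2, 20.7, 36.2 and 14.9 CPM in Sertoli-like cells, against 17.6, 9.61, 94.6 and 21.7 CPM in T or NK-like cells. In CPM it thus lay above that guide to background only at 30 days. T or NK-like cells were shallower, with a median of 1253 to 2835.5 UMIs per cell, against 3672 to 5770.5 in Sertoli-like cells. The parts of depth and of background in these levels and in the Sertoli-like ratio were not tested.

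COL16A1, a fibril-associated chain, had 48.5, 33.98, 21.8 and 1.88 CPM in Sertoli-like cells, lower in each later library. COL9A3, a chain of cartilage type IX collagen, had 25.9, 6.45, 10.3 and 0.826 CPM and was the one member whose highest somatic level lay in Sertoli-like cells; T or NK-like cells had at most 1.35 CPM. COL4A4 had 22.6, 6.604, 15.8 and 14.7 CPM. COL1A1 had 26.6, 36.8, 70.8 and 32.9 CPM, against 37.8, 33.6, 299 and 50.95 CPM in T or NK-like cells. In CPM, Sertoli-like cells thus did not stand clearly above them at any age. Against peritubular-like cells of the same library 27 of 35 collagen genes were lower at 30 days (20.3% of features), 22 of 29 at 60 days (20.4%) and 21 of 27 at 90 days (23.1%). The higher ones numbered 2, 1 and 0 (26.4%, 19.9% and 17.4% of features), COL9A3 at 30 and 60 days and COL17A1 at 30 days. With TMM, at a shift of at most 0.28, 28, 22 and 21 members were lower and 2, 1 and 0 higher, where 20.9%, 18.2% and 16.8% of features were lower and 25.1%, 23.6% and 24.4% higher.

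**Figure D5:**
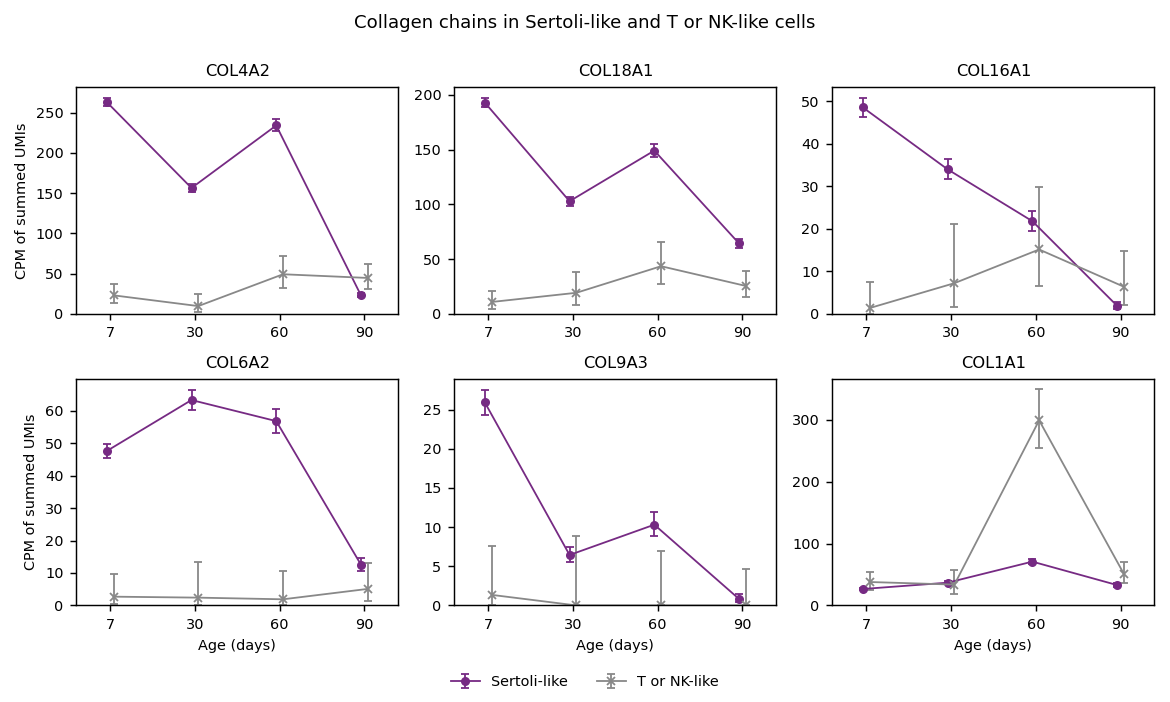
Panels give CPM of summed UMIs (linear axis from 0) by age in days for 6 collagen genes in Sertoli-like and T or NK-like cells, with 95% counting intervals. COL4A2 lies above the T or NK-like level at 7, 30 and 60 days and below it at 90 days, and COL1A1 is highest in T or NK-like cells at 60 days, at 299 CPM.

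Over age, the shift of all features is the yardstick. In Sertoli-like cells at 90 over 7 days 8 of 31 measured collagen genes were higher, against 40.8% of features, and 9 were lower, against 16.7%. The median feature had a log2 ratio of 0.43, TMM would move every value by -0.53, and the split then became 6 higher and 12 lower (28.4% and 30.6% of features). The higher members numbered 16 with no doublets removed, 16 with a mean over cells, 5 with each cell thinned to 2000 UMIs and 5 with 10% of counts subtracted as free RNA. COL9A3 was 31.4-fold lower (17.5 to 63.1), COL16A1 25.8-fold lower (17.5 to 40.04) and COL4A2 11.5-fold lower (10.3 to 12.96). COL6A2 was 3.79-fold lower (3.24 to 4.47) and COL18A1 3.002-fold lower (2.797 to 3.23). None of the higher members exceeded 8.26 CPM at 90 days.

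Taken over all ages, COL22A1 and COL28A1 had their highest levels in germ-like cells, and in most somatic classes they were higher at 90 days. COL22A1, known from tissue junctions, had 24.6, 27, 26.9 and 38.7 CPM in germ-like cells at the 4 ages, and COL28A1 had 16.8, 19.7, 14.8 and 9.44 CPM. At 90 days COL28A1 was higher than that in blood endothelial-like (13.9 CPM) and T or NK-like cells (11.5 CPM). It had at most 9.40 CPM in the other somatic classes used. In Sertoli-like cells COL22A1 had 0.15, 0.318, 0.546 and 6.99 CPM, and in T or NK-like cells it had 0, 0, 3.78 and 20.4 CPM. At 90 days the summed level of the 10 spermatid markers with a feature was 1546 to 4603 CPM in the somatic classes, against at most 19.8 CPM in them at other ages. Its part in the levels of both genes was not tested.

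In stromal-like cells at 90 over 7 days 13 of 33 measured genes were higher, against 39.9% of features, and 7 lower, against 9.40%. The median feature had a log2 ratio of 0.46, and with TMM, a shift of -0.52, the split was 9 higher and 10 lower (24.7% and 22.4%). The share of higher members was thus close to the background. Among members with at least 20 CPM in the higher library, ranked by the end of the interval closest to no change, COL4A3, COL4A4 and COL8A2 led the higher genes; COL8A2, a short network chain of cornea and vessels, had 2.12, 5.998, 7.86 and 31.5 CPM at the 4 ages. COL25A1, COL15A1 and COL6A3 led the lower ones. COL1A2, COL5A2, COL12A1 and COL18A1 no longer passed the mark with TMM, at log2 ratios of 0.46, 0.47, 0.31 and 0.08. With 30 in place of 7 days as the earlier library, 3 members were lower.

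In peritubular-like cells at 90 over 30 days 9 of 30 measured genes were higher, against 32.9% of features, and 6 lower, against 7.63%. The median feature had a log2 ratio of 0.37, and with TMM, a shift of -0.50, the split was 8 higher and 15 lower (18.9% and 19.8%). Beside the network chains and COL6A3, COL12A1 was 2.32-fold higher (1.89 to 2.84). COL5A1 was 1.51-fold higher (1.35 to 1.69), with a log2 ratio of 0.10 under TMM. COL27A1 was 2.195-fold lower (1.65 to 2.97).

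Pericyte-like cells are given by cluster number first, since cluster 18 led with peritubular markers. Cluster 16 held 276 cells at 90 days and 96 at 7 days, and cluster 18 held 210 and 59. In cluster 16 COL1A1 had 227 CPM at 90 days, against 941 CPM at 7 days, COL3A1 899 CPM at 90 days, against 2133 CPM at 7 days and COL6A1 168 CPM at 90 days, against 467 CPM at 7 days. In cluster 18 COL1A1 had 561 CPM at 90 days, against 253 CPM at 7 days, COL3A1 509.6 CPM at 90 days, against 579.8 CPM at 7 days and COL6A1 91.6 CPM at 90 days, against 73.02 CPM at 7 days. COL1A1 was thus lower at 90 days in cluster 16 and higher in cluster 18, where COL6A1 rested on 46 UMIs at 90 days and 17 at 7 days. COL6A5 had 152 CPM at 90 days, against 263 CPM at 7 days, in cluster 16, and at most 9.95 CPM in cluster 18.

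With both clusters summed, 1 of 21 measured genes was higher at 90 over 7 days, against 22.4% of features, and 6 were lower, against 7.41%. With TMM, a shift of -0.17, 10 were lower (11.1% of features). COL6A1 was 2.28-fold lower (1.799 to 2.898), COL3A1 2.07-fold lower (1.87 to 2.29) and COL1A1 1.63-fold lower (1.41 to 1.89) in that sum. COL6A5, COL6A3 and COL5A2 were the other lower genes. The higher gene, COL4A4, rested on 1 UMI at 7 days, with a log2 ratio of 3.55 (0.92 to 8.92).

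In blood endothelial-like cells at 90 over 7 days 14 of 26 measured genes were higher, against 30% of features, and 5 lower, against 9.10%. With TMM, a shift of -0.28, the counts were 13 and 6 (22.4% and 16.9%). COL13A1 was 2.04-fold higher (1.63 to 2.57), COL18A1 1.97-fold lower (1.67 to 2.34) and COL4A2 1.502-fold lower (1.42 to 1.59). COL1A2, also among the higher genes, had 46.3, 91.8, 342 and 112 CPM in endothelial-like cells, against 39.2, 64.9, 354 and 95.5 CPM in T or NK-like cells; whether these UMIs came from the endothelial-like cells themselves was not tested. With each cell thinned to 2000 UMIs, 7 members were higher and 1 lower.

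In Leydig-like cells at 90 over 7 days 3 of 17 measured genes were higher and 4 lower, against 35.1% and 9.47% of features; with TMM, a shift of -0.60, they were 2 and 8 (17.7% and 23.8%). COL3A1 was 4.92-fold lower (4.41 to 5.51) and COL4A5 4.84-fold higher (3.16 to 7.42). In lymphatic endothelial-like cells at 90 over 30 days 0 of 16 were higher and 2 lower, against 14.2% and 7.03%. The lower ones were COL5A2 and COL8A1, a short network chain of vessel lining that had 32.3 and 11.3 CPM at 30 and 90 days and was 2.86-fold lower (1.05 to 8.997). In macrophage-like cells at 60 over 7 days 11 of 17 were higher and 1 lower, against 18.4% and 10.2%, with 8 and 1 under TMM (11% and 17.9%). In T or NK-like cells at 90 over 7 days 4 of 10 were higher and 0 lower, against 32.5% and 10.2%.

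Single steps show where these differences lay. In stromal-like cells at 30 over 7 days 8 of 31 were higher and 7 lower (10.9% and 5.80% of features), at 60 over 30 days 5 of 29 were higher and 2 lower (18.1% and 6.36% of features) and at 90 over 60 days 5 of 28 were higher and 3 lower (23.1% and 9.07% of features). In peritubular-like cells at 60 over 30 days 8 of 29 were higher and 3 lower (16.7% and 4.14% of features), and at 90 over 60 days 6 of 26 were higher and 9 lower (25.4% and 10.8% of features). By the ranking used above, COL4A6, COL6A3 and COL4A5 led the higher genes of the first peritubular step, and COL12A1, COL4A4 and COL4A3 those of the next. In Sertoli-like cells at 30 over 7 days 1 of 33 was higher and 7 lower (13.2% and 10.5% of features), with COL9A3, COL4A4 and COL18A1 leading the lower ones by that ranking. With TMM the stromal-like steps had 6 higher and 10 lower (8.03% and 7.74% of features, shift -0.12), 5 higher and 7 lower (9.85% and 12.7% of features, shift -0.26) and 4 higher and 4 lower (20.8% and 11.2% of features, shift -0.08), and the peritubular-like steps had 4 higher and 4 lower (8.67% and 9.95% of features, shift -0.25) and 6 higher and 12 lower (19% and 17.1% of features, shift -0.25).

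The steps into and out of the 60-day library ran opposite ways in several classes. In Sertoli-like cells at 60 over 30 days 13 of 30 were higher and 2 lower (16.8% and 7.15% of features), with COL1A1, COL6A1 and COL1A2 leading the higher ones by that ranking, and at 90 over 60 days 5 of 30 were higher and 14 lower (30.8% and 15% of features). In blood endothelial-like cells at 30 over 7 days 7 of 24 were higher and 3 lower (7.65% and 6.58% of features), at 60 over 30 days 12 of 22 were higher and 0 lower (15.1% and 5.94% of features) and at 90 over 60 days 2 of 24 were higher and 11 lower (12.6% and 8.28% of features). Leydig-like cells had the same order: at 30 over 7 days 4 of 19 were higher and 2 lower (11.8% and 8.14% of features), at 60 over 30 days 13 of 17 were higher and 0 lower (27.6% and 8.62% of features) and at 90 over 60 days 0 of 17 were higher and 14 lower (13.8% and 13.3% of features). So had T or NK-like cells: at 30 over 7 days 0 of 7 were higher and 1 lower (4.76% and 4.57% of features), at 60 over 30 days 6 of 10 were higher and 0 lower (8.74% and 4.20% of features) and at 90 over 60 days 2 of 13 were higher and 7 lower (23.8% and 9.18% of features). With TMM the steps into and out of 60 days had 11 higher and 2 lower (13.6% and 10.7% of features, shift -0.12) and 4 higher and 16 lower (23.8% and 21.4% of features, shift -0.24) in Sertoli-like cells, 12 higher and 0 lower (9.29% and 12.5% of features, shift -0.26) and 2 higher and 10 lower (14.2% and 6.78% of features, shift 0.08) in blood endothelial-like cells and 11 higher and 1 lower (12.4% and 22.8% of features, shift -0.65) and 1 higher and 14 lower (16.9% and 10.8% of features, shift 0.13) in Leydig-like cells. The 60-day Leydig-like cells were mainly cluster 27. They had a median of 14.5 Leydig marker UMIs per cell, against 333 at 30 days and 110 at 90 days. The parts of this difference and of free RNA in these steps were not tested.

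The remaining genes were scarce. COL2A1, the main cartilage collagen, had 10.6, 1.504 and 3.67 CPM in peritubular-like cells. COL19A1 had 6.94, 5.84, 0.943 and 0.234 CPM in stromal-like cells and 14.8, 13.1, 10.8 and 1.21 CPM in germ-like cells. COL9A1 and COL17A1 were highest in germ-like cells, COL9A1 with 12.9, 14.7, 6.42 and 2.77 CPM and COL17A1 with 10.9, 11.3, 7.62 and 3.76 CPM. COL6A6 peaked at 5.59 CPM among somatic classes, COL23A1 at 6.45 CPM and COL26A1 at 2.54 CPM. COL10A1 and COL11A2 had 11 and 43 UMIs in all cells used.

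Genes that make, cross-link, break down or bind collagen were counted beside the chains. Their counts stand against 39.9% of features higher and 9.40% lower in stromal-like cells and 40.8% and 16.7% in Sertoli-like cells, both at 90 over 7 days, and 32.9% and 7.63% in peritubular-like cells at 90 over 30 days. With TMM these shares were 24.7% and 22.4%, 28.4% and 30.6%, and 18.9% and 19.8%. The genes named are the leading ones each way by the ranking used above, over the 4 lists together.

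Of the genes that fold and modify chains there were 2 higher and 9 lower of 18 measured (median log2 ratio -0.55; 2 and 10 with TMM) in stromal-like cells, 1 higher and 9 lower of 17 measured (median log2 ratio -0.62; 1 and 12 with TMM) in Sertoli-like cells and 2 higher and 6 lower of 18 measured (median log2 ratio -0.28; 0 and 10 with TMM) in peritubular-like cells. SERPINH1, the collagen chaperone HSP47, had 29.2 CPM at 90 days, against 175 CPM at 7 days, in Sertoli-like cells. In blood endothelial-like cells SERPINH1 had 187 CPM at 90 days, against 524 CPM at 7 days, and in pericyte-like cells it had 129 CPM at 90 days, against 329.8 CPM at 7 days. P3H2, a prolyl hydroxylase that acts on type IV collagen, had 49.3 CPM at 90 days, against 7.68 CPM at 7 days, in Sertoli-like cells. In blood endothelial-like cells P3H2 had 37.5 CPM at 90 days, against 1.84 CPM at 7 days, and in stromal-like cells it had 10.98 CPM at 90 days, against 117 CPM at 7 days, the opposite direction. In pericyte-like cells PLOD1, a lysyl hydroxylase, had 132 CPM at 90 days, against 70.8 CPM at 7 days, and MIA3, which helps to export large cargo, had 108 CPM at 90 days, against 68.9 CPM at 7 days.

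For propeptide removal and cross-linking there were 3 higher and 2 lower of 9 measured (median log2 ratio -0.21; 1 and 4 with TMM) in peritubular-like cells, 1 higher and 1 lower of 10 measured (median log2 ratio 0.15; 0 and 4 with TMM) in stromal-like cells and 0 higher and 5 lower of 11 measured (median log2 ratio -0.88; 0 and 6 with TMM) in Sertoli-like cells. LOX, which cross-links fibrils, had 220.1 CPM at 90 days, against 33.2 CPM at 30 days, in peritubular-like cells. In pericyte-like cells LOX had 12.9 CPM at 90 days, against 54.04 CPM at 7 days, the opposite direction. PCOLCE, an enhancer of C-propeptide removal, had 78.5 CPM at 90 days, against 267 CPM at 30 days, in peritubular-like cells. In the 90-day library PCOLCE had 78.5 CPM in peritubular-like cells, against 561 CPM in stromal-like cells, and the N-propeptidase ADAMTS3 had 12.5 CPM, against 89.7 CPM. TLL1, a propeptidase related to BMP1, had 21.5 CPM in blood endothelial-like cells at 90 days and no UMI in them at 7 days.

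For collagen breakdown and its inhibitors there were 1 higher and 1 lower of 5 measured (median log2 ratio -0.13; 1 and 3 with TMM) in peritubular-like cells, 2 higher and 1 lower of 5 measured (median log2 ratio 0.29; 1 and 2 with TMM) in stromal-like cells and 2 higher and 3 lower of 6 measured (median log2 ratio -0.89; 1 and 4 with TMM) in Sertoli-like cells. MMP14, a membrane-bound collagenase, had 26.7 CPM at 90 days, against 1.2 CPM at 7 days, in Sertoli-like cells. TIMP1, a secreted protease inhibitor, had 4.51 CPM at 90 days, against 81.4 CPM at 7 days, in Sertoli-like cells. In stromal-like cells TIMP1 had 259 CPM at 90 days, against 519 CPM at 7 days. In the 90-day library it had 503 CPM in peritubular-like cells, against 259 CPM in stromal-like cells. TIMP3, a matrix-bound protease inhibitor, had 781 CPM at 90 days, against 161 CPM at 30 days, in peritubular-like cells. In stromal-like cells TIMP3 had 935 CPM at 90 days, against 95.7 CPM at 7 days. MMP2, a gelatinase, had 126 CPM at 90 days, against 461 CPM at 30 days, in peritubular-like cells. MRC2, an uptake receptor for collagen fragments, had 7.16 CPM at 90 days, against 28.7 CPM at 7 days, in blood endothelial-like cells.

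For collagen receptors there were 3 higher and 1 lower of 6 measured (median log2 ratio 0.47; 2 and 2 with TMM) in peritubular-like cells, 1 higher and 0 lower of 8 measured (median log2 ratio 0.12; 1 and 1 with TMM) in stromal-like cells and 0 higher and 2 lower of 8 measured (median log2 ratio -0.88; 0 and 4 with TMM) in Sertoli-like cells. ITGA1, an integrin chain that binds collagen, had 224 CPM at 90 days, against 96.8 CPM at 7 days, in stromal-like cells. ITGB1, its partner, had 1028 CPM in peritubular-like cells of the 90-day library, against 609 CPM in stromal-like cells.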

How the data were processed

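The deposited matrices hold raw UMI counts per gene and barcode for 4 libraries, made with Cell Ranger 5.0.1 per the file headers; the submitters' processing notes also name bcl2fastq, Scanpy 1.7.1 and the build Sscrofa11.1. Cells with at least 1000 UMIs, 500 genes and at most 15% mitochondrial UMIs were kept, and the expected share of doublets (0.8% per 1000 barcodes) was removed by highest Scrublet score. Scanpy 1.11.5 clustered all libraries together without integration (2000 variable genes without the collagens, 30 components, 15 neighbours, Leiden resolution 1). Clusters were named from marker lists, with naming thresholds set after seeing the data; stromal markers did not count against the peritubular name, nor peritubular markers against the pericyte name, and a cell needed at least 2 UMIs of the markers of its class. UMIs were summed per class and library and given as CPM with exact Poisson intervals; ratios have exact conditional binomial intervals. A gene counted as higher or lower at 1.5-fold with an interval that excludes no change and at least 10 UMIs in both groups together. With 1 library per age no test or p-value was possible. TMM factors came from edgeR 4.0.16. The ratio code was tested on simulated counts.

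Genes are described in full where they reached 50 CPM in a somatic class; per comparison the 3 largest ratios each way were named among members with 20 CPM or more in the higher group, in the order of the end of the interval closest to equality, and from the gene lists together the 2 largest each way by the same order. Members and lists were chosen with earlier results of these data known. The alternatives tried concern doublets, the cell filter, clustering, the marker requirement, averaging, depth, scaling, free RNA and the call rule.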

Additional observations from a re-analysis of the deposited data

Results flagged for a closer look

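Some collagen genes with at least 20 CPM were higher in one class and lower in another at 90 over 7 days. These differences between classes were not tested, since each age has 1 library. For COL4A4 the log2 ratio was -0.62 among Sertoli-like cells, against 4.61 in stromal-like, 3.55 in pericyte-like and 2.20 in blood endothelial-like cells. The Sertoli-like ratio minus the other was -5.232 for stromal-like, -4.168 for pericyte-like and -2.816 for blood endothelial-like cells. At 7 days the pericyte-like ratio rests on 1 UMI and the blood endothelial-like ratio on 12 UMIs, so both are imprecise. Sertoli-like cells had 22.6, 6.60, 15.8 and 14.7 CPM of COL4A4 at the 4 ages, lowest at 30 days.

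For COL18A1 it was -1.59 among Sertoli-like cells and -0.98 in blood endothelial-like cells, against 0.60 in stromal-like cells. The Sertoli-like ratio minus the stromal-like ratio was -2.186, and the stromal-like minus the blood endothelial-like ratio was 1.581. COL5A2 had 0.99 in stromal-like and -0.62 in pericyte-like cells, a difference of 1.613. COL1A1 had -0.71 in pericyte-like and 0.68 in blood endothelial-like cells, a difference of -1.386. With TMM the stromal-like ratio of COL18A1 was 0.08, that of COL5A2 was 0.47 and the endothelial-like ratio of COL1A1 was 0.40, so none of these 3 passed the 1.5-fold mark. In pericyte-like cells COL1A1 had 227 CPM at 90 days, against 941 CPM at 7 days, in cluster 16 and 561 CPM, against 253 CPM, in cluster 18, so it was lower in cluster 16 and higher in cluster 18. COL5A2 had 117 CPM at 90 days, against 230 CPM at 7 days, in cluster 16. In cluster 18 it had 145 CPM, against 163 CPM, a smaller difference.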

How the results depend on the processing

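No paired analysis was possible because each age has 1 library. Of the counts of members higher or lower under the alternatives, 152 stayed within 1.5 times the reported count and 18 did not. Of the ratios of single genes, 1624 stayed within the counting interval, 254 left it in the same direction or from a value not called, and 6 turned their direction. With no doublets removed, 16 members were higher in Sertoli-like cells (reported 8), 11 members were lower in peritubular-like cells (reported 6), 3 members were higher in pericyte-like cells (reported 1), COL3A1 in Sertoli-like cells had a log2 ratio of 0.32 (reported -0.84) and COL6A1 in blood endothelial-like cells had a log2 ratio of 0.004074 (reported -0.68). With Scrublet's automatic doublet threshold, 2 members were higher in pericyte-like cells (reported 1). With cells chosen by markers and no clusters, 2 members were higher in pericyte-like cells (reported 1), 2 members were lower in blood endothelial-like cells (reported 5) and COL27A1 in Sertoli-like cells had a log2 ratio of 0.30 (reported -1.52). With each cell thinned to 2000 UMIs, 5 members were higher in Sertoli-like cells (reported 8), 7 members were higher in blood endothelial-like cells (reported 14), 1 member was lower in blood endothelial-like cells (reported 5) and COL14A1 in blood endothelial-like cells had a log2 ratio of -0.01509 (reported 1.23). With a mean over cells in place of the sum, 16 members were higher in Sertoli-like cells (reported 8) and 2 members were higher in pericyte-like cells (reported 1). With TMM factors, 15 members were lower in peritubular-like cells (reported 6) and 10 members were lower in pericyte-like cells (reported 6). With 10% of counts subtracted as free RNA, 5 members were higher in Sertoli-like cells (reported 8) and 3 members were lower in blood endothelial-like cells (reported 5). With a 2-fold mark, 2 members were lower in pericyte-like cells (reported 6) and 2 members were lower in blood endothelial-like cells (reported 5). With 30 in place of 7 days for stromal-like cells, an alternative chosen after seeing the data, 3 members were lower in stromal-like cells (reported 7), COL12A1 in stromal-like cells had a log2 ratio of -0.42 (reported 0.83) and COL13A1 in stromal-like cells had a log2 ratio of 0.53 (reported -1.81). Beyond the settings' own construction the causes were not tested.

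Members at a few CPM, many of them in Sertoli-like and blood endothelial-like cells, have wide intervals. Intervals cover counting error and not the spread between animals. The 60-day library has the most collagen in T or NK-like cells and the most unnamed cells.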
